A study of Rattus norvegicus and Mus musculus with 25 samples.

Results

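The sarcomere and Z-disc genes described here are 32 genes that encode the contractile unit of heart muscle. They were chosen by symbol, by a rule that uses no measured value, but with earlier results of these data known. In rat, 29 of the 32 have a row by that symbol in each of the 2 tables, out of 28905 rows, and in mouse 32 of 32 have one, out of 54083 rows. The RNA levels of Ttn, Tcap and Lmod2 were not analysed here in rat. All members with a row passed the filter on low values, a CPM (values scaled to 1000000 per library) of at least 1 in at least 2 rat or 3 mouse libraries. By role, 8 belong to the thin filament (Actc1, Tnnt2, Tnni3, Tnni1, Tnnc1, Tpm1, Tmod1, Lmod2) and 4 to the thick filament, titin and the M-band (Mybpc3, Ttn, Myom1, Myom2). The Z-disc accounts for 13 (Actn2, Myoz2, Ldb3, Tcap, Csrp3, Nebl, Pdlim3, Pdlim5, Nexn, Synpo2l, Flnc, Xirp1, Xirp2), and the assembly and turnover of the structure for 7 (Smyd1, Unc45b, Cryab, Fhod3, Trim54, Trim55, Trim63).

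The sarcomere is the repeating unit of the myofibril: thin filaments of actin, tropomyosin and troponin slide past thick filaments of myosin, and calcium binding to troponin starts the contraction. Thin filaments are anchored in the Z-disc by alpha-actinin and its partners, thick filaments are held in register at the M-band, and titin spans from one to the other. Around birth heart muscle cells lose most of their capacity to divide while their myofibrils mature, and the troponin I genes mark this, since the slow skeletal form Tnni1 is the fetal one and Tnni3 the cardiac one that replaces it.

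The series asks how Reelin and thrombospondin-1, 2 secreted proteins, act on cardiomyocytes through the receptor Vldlr, as its title states. RNA was sequenced from 25 libraries, 16 of rat and 9 of mouse. The rat cells were ventricular cardiomyocytes of 1-day-old SD rats, cultured after 90 min of pre-plating that removes faster-attaching cells. They form 8 groups of 2 libraries in 4 pairs. si-Vldlr and si-Control_v were transfected with 50 nM siRNA for 60 h, as were si-Thbs1 and si-Control_t. Reelin and PBS were given for 48 h. Vldlr OE (overexpression) and Control belong to a 72 h transduction, for which the labels' protocol names the vectors AAV9-cTnT-Vldlr and AAV9-CMV-GFP, which differ in promoter as well as in insert. The mouse cells were cardiomyocytes of 1-day-old C57BL/6 mice with 3 libraries per genotype. In Myh6-Cre;Vldlr f/f mice Cre is driven by the cardiomyocyte promoter of Myh6 and each Vldlr copy is floxed. The same Cre meets 1 floxed copy in Myh6-Cre;Vldlr f/+ mice. The controls, Vldlr f/f, have floxed copies and no Cre. No group carries Cre without a floxed allele. The labels do not say whether replicate libraries are separate cultures or animals, so the spread behind each p-value could be technical alone.

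In mouse 100.0% of low values, and in rat 97.03% to 97.61%, were whole multiples of a small step within 0.05 steps, and steps summed to 77524002 to 97764676 in the 12-library rat table, 87067457 to 96059594 in the 4-library rat table and 66081626 to 78362841 in mouse. A step need not be a read, so the read depth behind a value is unknown. Vldlr was 183 and 171 CPM in si-Vldlr, compared with 252 and 257 CPM in si-Control_v, and 656 and 889 CPM in Vldlr OE against 577 and 379 CPM in Control. In mouse it was 71.3, 78.9 and 85.1 CPM in Myh6-Cre;Vldlr f/f, 98.4, 112 and 100 CPM in Myh6-Cre;Vldlr f/+ and 195, 109 and 164 CPM in Vldlr f/f. Thbs1 was 745 and 546 CPM in si-Thbs1 against 943 and 892 CPM in si-Control_t. The targeted gene lay on the labelled side of its control without overlap, except in Myh6-Cre;Vldlr f/+, whose highest library passed the lowest of Vldlr f/f. None of these differences passed limma's test over all genes (adjusted p = 0.348 for si-Vldlr, 0.958 for Vldlr OE, 0.997 for Myh6-Cre;Vldlr f/f, 0.999 for Myh6-Cre;Vldlr f/+ and 0.821 for si-Thbs1). Of 14 cardiomyocyte markers that are not members, 14 were detected in each table and summed to 12459 to 25029 CPM in rat and 39518 to 47932 CPM in mouse. The 12 fibroblast markers were all detected too, at 28394 to 46656 CPM in rat and 3188 to 5947 CPM in mouse. Libraries of both species thus held RNA of both cell types. In mouse the 7 erythroid markers with a row, of 9, summed to 2964 to 6701 CPM. There the endothelial markers summed to 1146 to 1534 CPM and the epicardial ones to 104 to 564 CPM. The part of these lists in the mouse comparisons was not tested. In bulk samples fewer cells of a type and less RNA per cell cannot be told apart.

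The members took 2.45% to 3.25% of all CPM in the 12-library rat table, 2.18% to 3.76% in the 4-library one and 4.00% to 4.95% in mouse. The thin filament supplied most of this. Cardiac actin, Actc1, had the highest mean CPM of the members in each rat table, between 9269 and 13196 CPM in the 12-library table. In the 4-library table Actc1 ran from 3331 to 14735 CPM and cardiac troponin T, Tnnt2, from 4226 to 4605 CPM. Tnnt2 had the highest mean in mouse, between 7675 and 12163 CPM. Levels of different genes were compared per length in mouse only, as CPM per kb of the principal transcript in the mm10 annotation (GENCODE M21). Tnnt2 (chr1:135836354-135852260) had a median of 7266 CPM per kb over the 9 libraries and Actc1 (chr2:114047282-114053548) 5864 CPM per kb, and their ranges overlapped. The calcium-binding troponin C, Tnnc1, followed at 3454, Tnni3 at 3004, the tropomyosin Tpm1 at 2455 and Tnni1 at 1272 CPM per kb. The 6 highest genes were thus all of the thin filament. Next came the Z-disc gene Csrp3 (muscle LIM protein) at 939 CPM per kb, Actn2 (alpha-actinin) at 636 and the myosin-binding protein gene Mybpc3 (chr2:91118144-91136516) at 572. At the low end stood Ttn (titin) at 22.1 CPM per kb over a transcript of 100404 bases, and the ubiquitin ligase gene Trim54 at 7.43. Lowest was Xirp2, at 0.932 CPM per kb. Xirp2 encodes an actin-binding protein of the intercalated disc and was grouped here with the Z-disc genes.

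The upstream 250 bases of 4 rat members are printed because the results below return to them: Tnnt2 for its level and because the Vldlr OE vector carries a cTnT promoter (of a species the labels do not name), Tnni3 and Mybpc3 for the smallest p-values with si-Vldlr, and Xirp2 for the smallest with si-Thbs1. They are RefSeq sequences on GRCr8, while the files' rat build is rn6, and no value was joined to them by position. Capitals mark a match to a MEF2 motif (Mybpc3 and Xirp2) or to the MCAT motif CATTCC (Tnnt2). Tnnt2 has a second promoter entry, chr13:49823809-49824058, which is not printed and holds no MEF2 or MCAT match.
Tnnt2, chr13:49818873-49819122 (+ strand): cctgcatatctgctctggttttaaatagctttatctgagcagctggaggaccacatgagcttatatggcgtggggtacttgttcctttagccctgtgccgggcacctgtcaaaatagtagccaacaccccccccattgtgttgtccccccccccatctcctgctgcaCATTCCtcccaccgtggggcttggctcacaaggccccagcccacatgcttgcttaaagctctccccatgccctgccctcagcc
Tnni3, chr1:78342321-78342570 (+ strand): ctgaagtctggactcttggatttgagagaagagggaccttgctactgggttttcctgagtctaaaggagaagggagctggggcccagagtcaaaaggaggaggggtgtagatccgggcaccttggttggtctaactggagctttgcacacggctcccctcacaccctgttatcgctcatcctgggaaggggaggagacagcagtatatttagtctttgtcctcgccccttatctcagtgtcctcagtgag
Mybpc3, chr3:97550811-97551060 (+ strand): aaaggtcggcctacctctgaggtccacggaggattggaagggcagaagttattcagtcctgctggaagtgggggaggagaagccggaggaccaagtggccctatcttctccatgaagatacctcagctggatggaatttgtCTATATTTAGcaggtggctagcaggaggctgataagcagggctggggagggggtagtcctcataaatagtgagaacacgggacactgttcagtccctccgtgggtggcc
Xirp2, chr3:72533936-72534185 (+ strand): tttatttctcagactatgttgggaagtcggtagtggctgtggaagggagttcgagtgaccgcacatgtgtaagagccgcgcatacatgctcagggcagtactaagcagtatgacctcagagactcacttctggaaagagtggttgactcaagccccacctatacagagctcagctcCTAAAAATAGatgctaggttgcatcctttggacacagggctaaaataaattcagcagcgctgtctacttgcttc
Of the 32 members 25 had a promoter entry, among them Ttn and Lmod2, whose RNA levels were not analysed in rat. On either strand, the MEF2 motif (10 letters, by its usual consensus) was in 6 of the 25 (24.0%), against 3.32% of 27457 genes with an entry. The CArG box (10 letters) was in 2, against 1.62% of all genes, MCAT in 7 (28.0%), against 12.9%, and the E-box CANNTG in 20 (80.0%), against 67.0%. Motifs were searched separately, so matches may share letters. The printed Tnni3 window holds no match to MEF2, CArG or MCAT. These are matches of letters, with no measurement of binding.

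Between libraries of a group most members varied little in the 12-library rat table, where the within-group SD on the log2 scale had a median of 0.11 and ran from 0.05 to 0.78. The largest belonged to Xirp2, which was 639 and 412 CPM in si-Vldlr and 589 and 129 CPM in si-Control_v. In the 4-library table the median SD was 0.22 and the largest, 1.11, belonged to Actc1, which was 14735 and 3331 CPM in si-Thbs1 and 9952 and 6660 CPM in si-Control_t. The median was 0.38 in mouse, with the largest, 1.01, for Lmod2, the leiomodin that lengthens thin filaments. By its median SD the 12-library table was the most precise, though not for every member: Xirp2 and Nebl, for example, had larger standard errors there (0.60 and 0.23) than in the 4-library table (0.35 and 0.12).

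**Figure D1:**
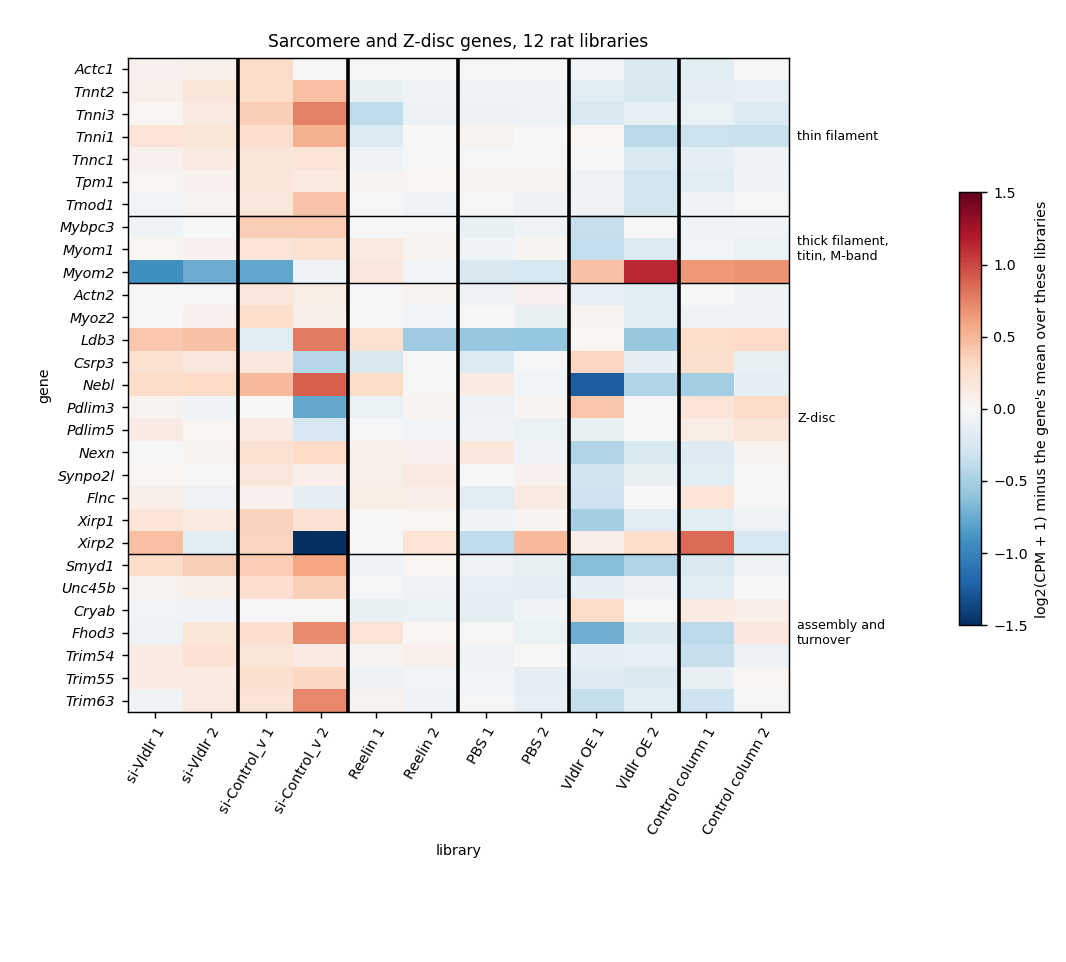
Level of 29 members (rows, grouped by role) in the 12 libraries of the larger rat table (columns, groups divided by thick lines), as log2(CPM + 1) minus the gene's mean over these libraries. Most rows are pale across all groups, the si-Control_v libraries are red for many thin filament genes, and Xirp2 is darkest blue in si-Control_v library 2 at 129 CPM.

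With knockdown of Vldlr, the comparison that asks what less of the receptor's RNA does to cultured cardiomyocytes, no member passed limma's test. At an adjusted p under 0.05, 0 of 29 were called, against 0.0289% of the 13860 genes tested. The smallest adjusted p among members was 0.286. Most members nevertheless had lower levels in si-Vldlr than in si-Control_v. The log2 fold change was negative for 22 and positive for 7, with a median of -0.14 against -0.02 over all genes. The si-Vldlr libraries lay wholly below the si-Control_v libraries for 20 members and wholly above for 1, against 27.4% and 21.1% of all genes. An unadjusted p under 0.05 was reached by 5 members, all lower in si-Vldlr, against 11.8% of all genes. Mean CPM in si-Vldlr, si-Control_v, PBS and Control was 363, 513, 324 and 309 for Tnni3 and 1434, 1895, 1373 and 1408 for Mybpc3. It was 124, 153, 120 and 119 for Tmod1, 214, 251, 185 and 193 for Unc45b, and 51.8, 70.7, 47.7 and 44.9 for Trim63. So si-Control_v had the highest mean of these groups in all 5, which were picked by the si-Vldlr difference from it. PBS and Control had no siRNA and other treatment times, and what sets si-Control_v apart was not tested. The 95% interval lay within a 2-fold change either way for 28 of 29.

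All 7 thin filament genes had a negative value, with a median of -0.19, and 6 of them lay wholly below, against 27.4% of all genes. Tnni3 was 350 and 377 CPM in si-Vldlr and 443 and 582 CPM in si-Control_v, a log2 fold change of -0.48 ± 0.13 (SE). Tmod1, which caps the slow-growing end of the thin filament, was 120 and 128 CPM in si-Vldlr and 139 and 167 CPM in si-Control_v (-0.29 ± 0.10). In both genes si-Control_v library 2 was the highest. Tnnt2 was 2843 and 3051 CPM in si-Vldlr, compared with 3255 and 3681 CPM in si-Control_v (-0.23 ± 0.11). Tnni1 was 592 and 583 CPM in si-Vldlr, compared with 609 and 743 CPM in si-Control_v. The log2 ratio of Tnni3 to Tnni1 was -0.76 and -0.63 in si-Vldlr and -0.46 and -0.35 in si-Control_v, without overlap. This balance of the troponin I forms was given no test. It was -0.72 and -0.65 in PBS, -0.75 and -0.66 in Reelin, -0.35 and -0.45 in Control and -0.84 and -0.30 in Vldlr OE. The PBS values thus lay within the si-Vldlr range and the Control values within that of si-Control_v. The Vldlr OE libraries alone spanned both ranges.

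The 3 genes of the thick filament and M-band also had negative values. Mybpc3 was 1397 and 1472 CPM in si-Vldlr and 1889 and 1901 CPM in si-Control_v (-0.40 ± 0.11), with libraries closely spaced within each group. Myom1 was 350 and 358 CPM in si-Vldlr and 393 and 401 CPM in si-Control_v (-0.17 ± 0.08), and the Myom2 libraries overlapped. Among the 7 assembly and turnover genes 6 lay wholly below, against 27.4% of all genes. Unc45b, a chaperone of myosin, was 211 and 216 CPM in si-Vldlr libraries and 241 and 261 CPM in si-Control_v (-0.23 ± 0.08). The ubiquitin ligase gene Trim63 (MuRF1), named here after its values were seen, was 48.4 and 55.2 CPM in si-Vldlr, compared with 57.7 and 83.7 CPM in si-Control_v (-0.42 ± 0.17). The 12 Z-disc genes had 6 positive and 6 negative values and a median of -0.04. All 6 negative ones, of the 12, lay wholly below, against the same 27.4% of all genes. Csrp3 was the member that lay above, at 668 and 641 CPM in si-Vldlr, compared with 638 and 425 CPM in si-Control_v (0.33 ± 0.21).

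Other measures also differed between these libraries. The 14 cardiomyocyte markers that are not members summed to 14332 and 15260 CPM in si-Vldlr and to 15737 and 22010 CPM in si-Control_v, and their part in the members' difference was not tested. The log2 ratio of the members' summed CPM to that of these markers was 1.02 and 0.94 in si-Vldlr and 1.05 and 0.48 in si-Control_v, so it overlapped. The 10 smooth muscle and pericyte markers, all detected, summed to 3836 to 3910 CPM in si-Vldlr and 2948 to 3388 CPM in si-Control_v. The 9 epicardial markers with a row, of 10, summed to 165 to 171 CPM in si-Vldlr and 151 to 156 CPM in si-Control_v. Fibroblast markers overlapped. The part of these lists was not tested. Mitochondrially encoded genes took 6.51% of CPM in si-Control_v library 2, against 3.97%, 4.35% and 4.32% in the other 3 libraries of the pair. Without si-Control_v library 1, Tnni3 passed the test (log2 fold change -0.68, limma adjusted p = 0.043), beside 167 genes called in all against 4, while without library 2 its value was -0.29 (adjusted p = 0.727). With libraries scaled by the median of gene ratios instead, the median over all genes was 0.01, that of the members -0.11, and 17 members lay wholly below and 1 above, against 22.5% and 26.1% of all genes.

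With Reelin the members lay close to the PBS libraries. No member of 29 was called, against 0.0144% of all genes, and none had an unadjusted p under 0.05, against 1.36%. Log2 fold changes were positive for 23 and negative for 6, but their median of 0.04 was near the 0.02 of all genes and their range was -0.15 to 0.42. The Reelin libraries lay above both PBS libraries for 10 members and below for 1, against 19.7% and 13.0% of all genes, and under the median-of-ratios scaling the counts were 6 and 4, against 15.9% and 16.3%. Myom2, an M-band protein gene, was 254 and 218 CPM with Reelin and 190 and 187 CPM with PBS (0.32 ± 0.24). Ldb3 (Cypher), a Z-disc scaffold, was 662 and 387 CPM with Reelin and 380 and 376 CPM with PBS (0.42 ± 0.31), a difference carried by Reelin library 1. Myom1 was 380 and 355 CPM with Reelin against 331 and 353 CPM with PBS (0.10 ± 0.08). Tnni3 was 264 and 324 CPM with Reelin against 323 and 325 CPM with PBS (-0.15 ± 0.13). The limma adjusted p was 1 for each of these genes, and 27 of 29 intervals lay within a 2-fold change.

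Overexpression of Vldlr also gave mostly negative values, with no call. Its Control libraries are the pair of columns headed Blank, which no label names and which fell to Control because every other column had a group, so these values hold only if that is right. As before, 0 of 29 were called, against 0.00722% of all genes, with a smallest adjusted p of 0.958. Negative values outnumbered positive ones by 23 to 6, with a median of -0.11 against -0.03 over all genes. The Vldlr OE libraries lay below both Control libraries for 9 members and above for 0, against 15.5% and 9.54% of all genes, and for 8 and 0, against 11.7% and 13.5%, under the median-of-ratios scaling. The 3 members with an unadjusted p under 0.05, against 4.52% of all genes, were all lower in Vldlr OE. Smyd1, a muscle methyltransferase needed to build myofibrils, was 72.6 and 82.3 CPM in Vldlr OE and 96.9 and 107 CPM in Control (-0.40 ± 0.10). Myom1 was 265 and 296 CPM in Vldlr OE and 333 and 319 CPM in Control (-0.22 ± 0.08). The Z-disc and filament-binding gene Nexn (nexilin) was 243 and 285 CPM in Vldlr OE and 292 and 347 CPM in Control (-0.27 ± 0.11). In these 3 genes Vldlr OE library 1 was the lowest of the 4 libraries. Nebl (nebulette), a Z-disc protein gene, was 42.6 and 73.6 CPM in Vldlr OE and 70.4 and 91.7 CPM in Control (-0.51 ± 0.23), and its libraries overlapped. By role, 10 of 12 Z-disc genes were negative (median -0.17) and 5 of 12 lay wholly below, while the 7 thin filament genes had a median of -0.05. Cardiomyocyte markers that are not members summed to 12459 and 15414 CPM in Vldlr OE and 14962 and 15677 CPM in Control, and their part was not tested.

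The effects of knockdown and overexpression were compared directly as the si-Vldlr log2 fold change minus the Vldlr OE one. No member differed after adjustment (0 of 29 called against 0.00722% of all genes, smallest adjusted p 0.955). The median difference was -0.03, against 0.02 over all genes, and it turned to 0.06 without Control column 1 and was -0.08 without Control column 2. Tnni3 was the only member with an unadjusted p under 0.05, against 4.68% of all genes, at -0.46 ± 0.19: its log2 fold change was -0.48 in si-Vldlr and -0.02 in Vldlr OE, where it was 293 and 315 CPM against 320 and 298 CPM in Control. Pdlim5 (0.34 ± 0.16), Mybpc3 (-0.27 ± 0.16) and Smyd1 (0.24 ± 0.14) had the next smallest p-values. All 7 thin filament genes had a negative difference (median -0.16), and 10 of 12 Z-disc genes a positive one (median 0.21).

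Knockdown of Thbs1 was measured in a table of 4 libraries of its own. No member was called (0 of 29, against 0.0447% of 13416 genes), and the smallest adjusted p was 0.658. Values were positive for 19 and negative for 10, with a median of 0.04 against 0.03 over all genes. The median was -0.04 without si-Thbs1 library 1 (0.09 over all genes), 0.29 without library 2 (-0.03), 0.10 without si-Control_t library 1 (-0.01) and 0.07 without library 2 (0.07). The si-Thbs1 libraries lay above both si-Control_t libraries for 6 members and below for 1, against 18.5% and 10.8% of all genes, and for 6 and 3, against 16.2% and 15.8%, under the median-of-ratios scaling. The 3 members with an unadjusted p under 0.05, against 5.52% of all genes, were all higher with si-Thbs1. Xirp2 was 254 and 138 CPM in si-Thbs1 and 105 and 65.7 CPM in si-Control_t, a log2 fold change of 1.16 ± 0.35 and the highest of any member in any rat comparison. Csrp3, a Z-disc protein also linked to stretch sensing, was 470 and 316 CPM in si-Thbs1 and 268 and 203 CPM in si-Control_t (0.72 ± 0.24). Myom2 was 279 and 274 CPM in si-Thbs1 and 216 and 117 CPM in si-Control_t (0.79 ± 0.29). In Xirp2 and Csrp3 library 1 was the higher one of each group. Pdlim3, an alpha-actinin partner at the Z-disc, was 156 and 152 CPM in si-Thbs1 and 108 and 134 CPM in si-Control_t (0.35 ± 0.15). Without si-Control_t library 1, Xirp2 (1.50) and Myom2 (1.23) passed the test (limma adjusted p = 0.0381 and 0.0176), beside 185 genes called in all against 6. Actc1 gave the widest interval, -1.95 to 1.52, and the Tnni3 to Tnni1 ratio (log2) was -0.19 and -0.79 in si-Thbs1 and -0.18 and -0.84 in si-Control_t, a split by library and not by treatment. The cardiomyocyte markers split the same way, at 25029 and 17986 CPM in si-Thbs1 and 24387 and 19521 CPM in si-Control_t, and their part was not tested.

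**Figure D2:**
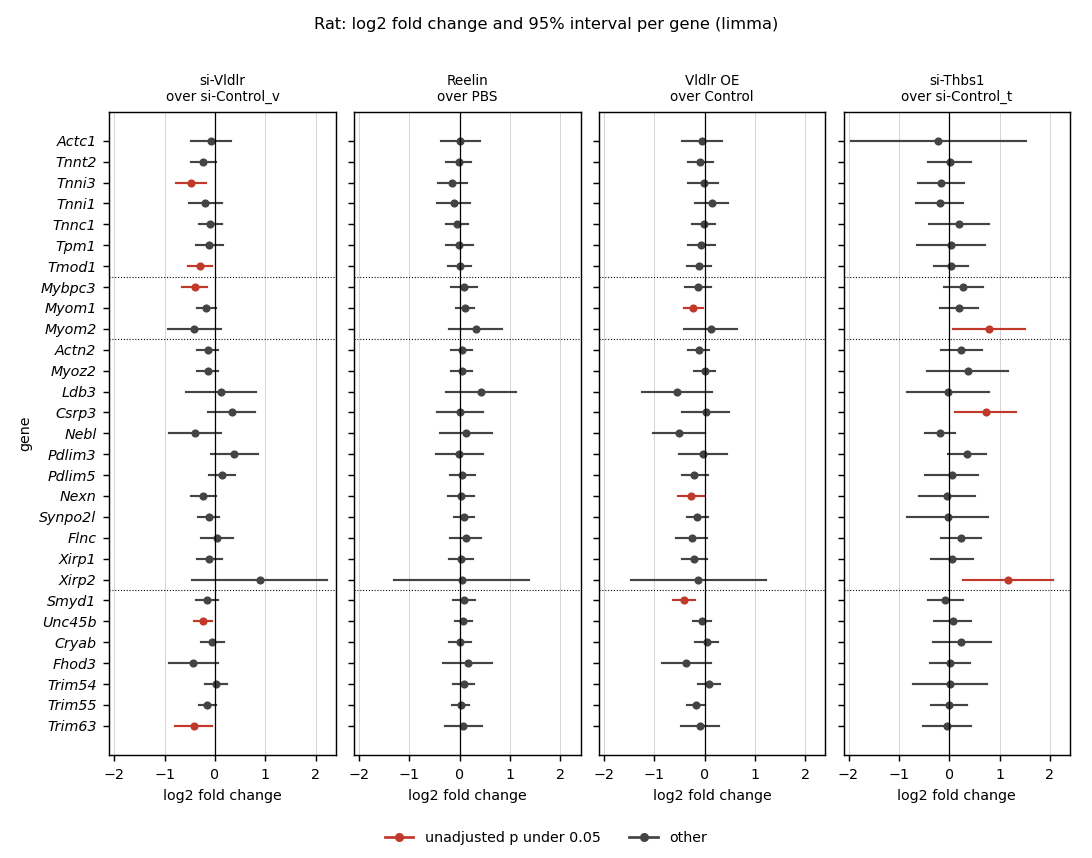
Log2 fold change of each of 29 members (rows, by role) in the 4 rat comparisons, with dots for the estimate, lines for limma's 95% interval and red for an unadjusted p under 0.05. The red genes with si-Vldlr and Vldlr OE lie left of 0, those with si-Thbs1 lie right of 0, and none is red with Reelin.

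Before the mouse comparisons, 3 mouse libraries, 1 of each genotype, stood apart from the other 6: Myh6-Cre;Vldlr f/f library 1, Myh6-Cre;Vldlr f/+ library 1 and Vldlr f/f library 2. On the first principal component, with 35.3% of the variance over all genes tested, they had loadings of 0.35, 0.58 and 0.38, while the other 6 ran from -0.34 to 0.09. The split was chosen after the values were seen and crosses the genotypes. Among the members 7 lay wholly below the other 6 libraries in these 3 and 2 wholly above, while 17.1% of all genes did not overlap. The 7 were the Z-disc genes Synpo2l and Flnc (filamin C), the thin filament gene Lmod2, Myom1 and Myom2 of the M-band, and the assembly genes Fhod3, a formin, and Unc45b. Synpo2l was 127 to 225 CPM in the 3 libraries and 330 to 501 CPM in the other 6. Flnc was 101 to 173 CPM in the 3 and 188 to 369 CPM in the other 6. The 2 above were Tnnc1, at 2912 to 3029 CPM in the 3 and 1601 to 2507 CPM in the other 6, and Ttn, at 2776 to 3666 CPM in the 3 and 1064 to 2770 CPM in the other 6. Mitochondrially encoded genes took 19.9% to 21.4% of CPM in the 3 and 14.2% to 24.7% in the other 6.

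**Figure D3:**
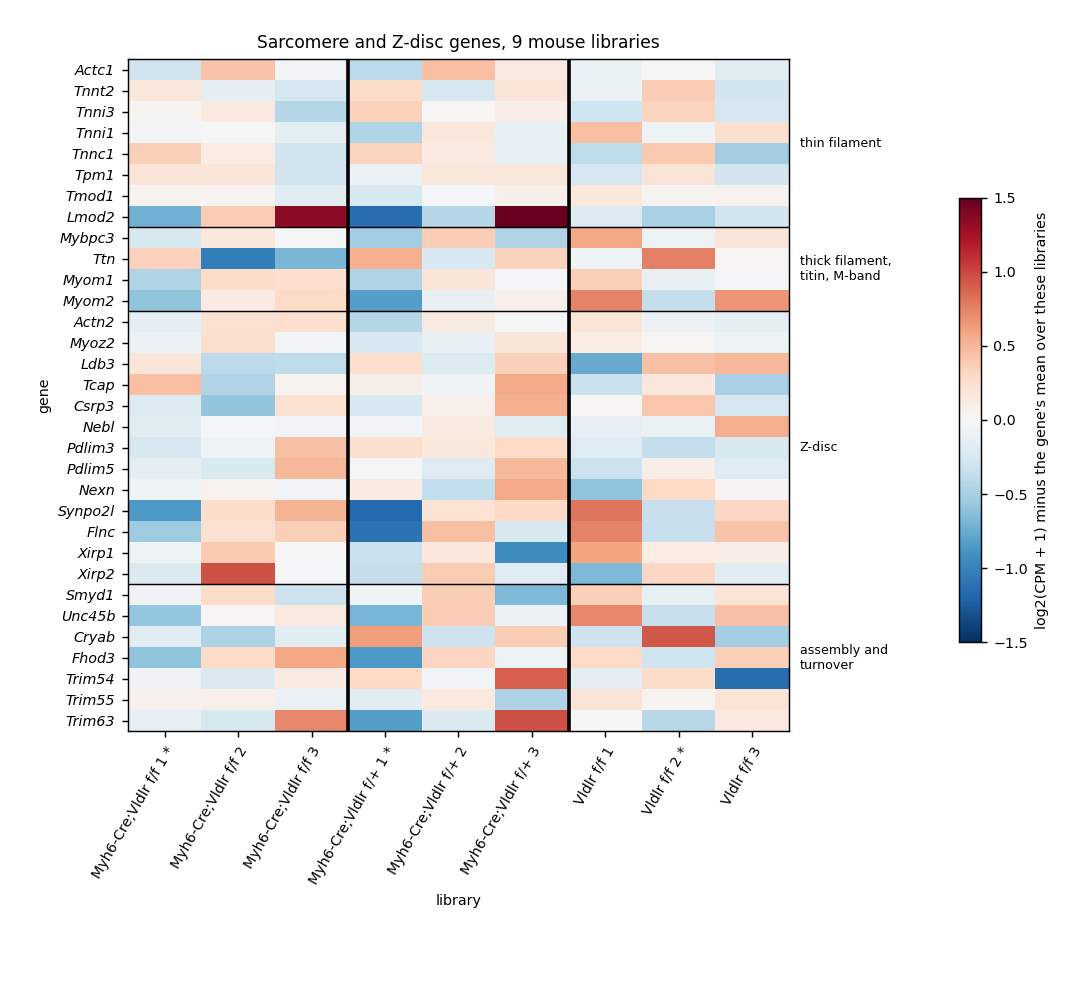
Level of 32 members (rows, by role) in the 9 mouse libraries (columns, genotypes divided by thick lines), as log2(CPM + 1) minus the gene's mean over these libraries. Stars mark the 3 libraries that stood apart, where Synpo2l, Flnc, Lmod2, Fhod3, Unc45b, Myom1 and Myom2 are blue and Tnnc1 and Ttn red whatever the genotype.

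In mouse, Myh6-Cre;Vldlr f/f set against the Vldlr f/f libraries gave 0 called members of 32, where 0% of the 14922 genes tested were called. Vldlr itself, at a fold of 0.520, was not called either. An unadjusted p under 0.05 was reached by 0 of 32, against 3.04% of all genes. Values were positive for 13 and negative for 19, with a median of -0.06 against -0.11 over all genes. The groups overlapped for 32 of 32 members, while 1.72% of all genes lay wholly above and 6.81% wholly below. Under the median-of-ratios scaling the median of all genes moved to -0.00 and that of the members to 0.06, so the members' median lay above that of all genes under both scalings. It lay below without Myh6-Cre;Vldlr f/f library 2 (-0.12 against -0.05), without Vldlr f/f library 3 (-0.10 against -0.08) and with no filter on low values (-0.06 against -0.03). Ttn was 2776, 1064 and 1351 CPM in Myh6-Cre;Vldlr f/f and 2085, 3666 and 2220 CPM in Vldlr f/f (-0.70 ± 0.39). The highest library of each of these groups was one of the 3 that stood apart. Pdlim3 was 71.4, 80.8 and 116 CPM in Myh6-Cre;Vldlr f/f and 74.2, 66.2 and 72.2 CPM in Vldlr f/f (0.30 ± 0.21). Tnni1 was 1463, 1470 and 1351 CPM in Myh6-Cre;Vldlr f/f and 2043, 1420 and 1772 CPM in Vldlr f/f (-0.27 ± 0.24). Unc45b was 158, 240 and 262 CPM in Myh6-Cre;Vldlr f/f and 389, 185 and 321 CPM in Vldlr f/f (-0.40 ± 0.35). The limma adjusted p was 0.997 for each, and 21 of 32 intervals lay within a 2-fold change, and the other 11 reached beyond it. Without the 3 libraries 0 members were called, and the median was 0.08 against -0.16 over all genes.

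With the heterozygous Myh6-Cre;Vldlr f/+ genotype set against the same Vldlr f/f libraries, 0 of 32 members were called, against 0% of all genes, and 1 had an unadjusted p under 0.05, against 2.43%. That was Pdlim3, at 101, 95.5 and 104 CPM in Myh6-Cre;Vldlr f/+ and 74.2, 66.2 and 72.2 CPM in Vldlr f/f, a log2 fold change of 0.50 ± 0.21 (limma adjusted p = 0.999). It was also the member whose groups did not overlap, 1 above and 0 below, against 2.20% and 3.77% of all genes. Values split 16 to 16, with a median of 0.02 against -0.06 over all genes, and the median ran from -0.11, without Myh6-Cre;Vldlr f/+ library 3, to 0.06, without Vldlr f/f library 2. Xirp1, a paralog of Xirp2, was 192, 271 and 127 CPM in Myh6-Cre;Vldlr f/+ and 368, 262 and 260 CPM in Vldlr f/f (-0.64 ± 0.29). Trim54 was 13.8, 10.7 and 21.5 CPM in Myh6-Cre;Vldlr f/+ and 10.0, 13.6 and 4.53 CPM in Vldlr f/f (0.71 ± 0.38). Myom2 was 454, 751 and 849 CPM in Myh6-Cre;Vldlr f/+ and 1356, 631 and 1280 CPM in Vldlr f/f (-0.64 ± 0.37). Each of these 3 genes overlapped between the genotypes. Without the 3 libraries 0 members were called, and the median was 0.12 against -0.09 over all genes.

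Between the Cre genotypes, a comparison in which both sides carry Cre, 0 of 32 members were called in Myh6-Cre;Vldlr f/f against Myh6-Cre;Vldlr f/+, against 0% of all genes, and 0 had an unadjusted p under 0.05, against 0.925%. The groups overlapped for every one of the 32, while 0.677% of all genes lay wholly above and 1.82% wholly below. Values split 16 to 16 with a median of 0.02, against -0.06 over all genes, and the median ran from -0.10, without Myh6-Cre;Vldlr f/+ library 1, to 0.08, without Myh6-Cre;Vldlr f/f library 1. Ttn was 2776, 1064 and 1351 CPM in Myh6-Cre;Vldlr f/f and 3150, 1850 and 2770 CPM in Myh6-Cre;Vldlr f/+ (-0.67 ± 0.39). Cryab, a small heat shock protein that guards sarcomere proteins, was 242, 196 and 245 CPM in Myh6-Cre;Vldlr f/f and 423, 219 and 353 CPM in Myh6-Cre;Vldlr f/+ (-0.50 ± 0.38). Xirp1 (0.48 ± 0.29) and Trim54 (-0.43 ± 0.38) completed the 4 smallest p-values, each with a limma adjusted p of 1. Without the 3 libraries 0 members were called, and the median was -0.05 against -0.08 over all genes. The log2 ratio of Tnni3 to Tnni1 was 0.90, 1.01 and 0.55 in Myh6-Cre;Vldlr f/f, 1.64, 0.68 and 1.04 in Myh6-Cre;Vldlr f/+ and 0.08, 1.24 and 0.33 in Vldlr f/f, so all 9 mouse libraries had more Tnni3 than Tnni1 CPM. All 16 rat libraries had less, between -0.84 and -0.18, a difference across tables, species and preparation that was not tested.

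**Figure D4:**
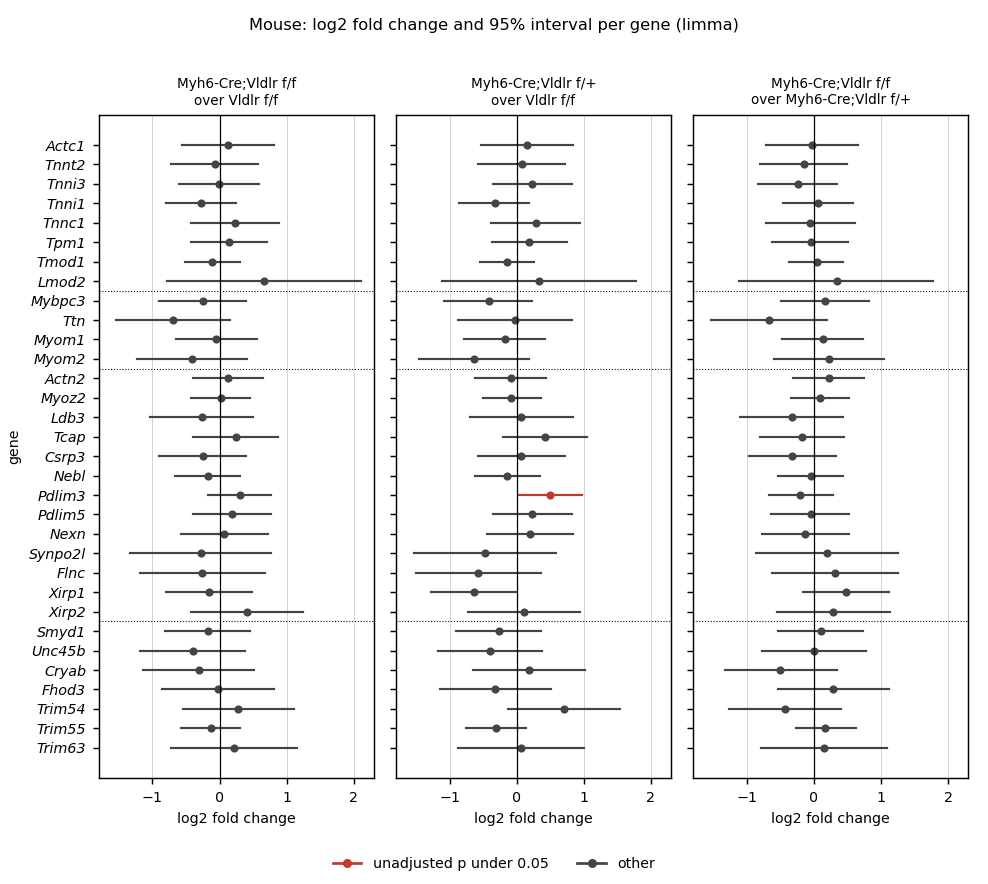
Log2 fold change of each of 32 members (rows, by role) in the 3 mouse comparisons, with dots for the estimate, lines for limma's 95% interval and red for an unadjusted p under 0.05. Pdlim3 in Myh6-Cre;Vldlr f/+ over Vldlr f/f, at 0.50, is the one red gene, and the lines are longer than in the 12-library rat table, where the median SE was 0.11 against 0.29 in mouse.

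**Figure D5:**
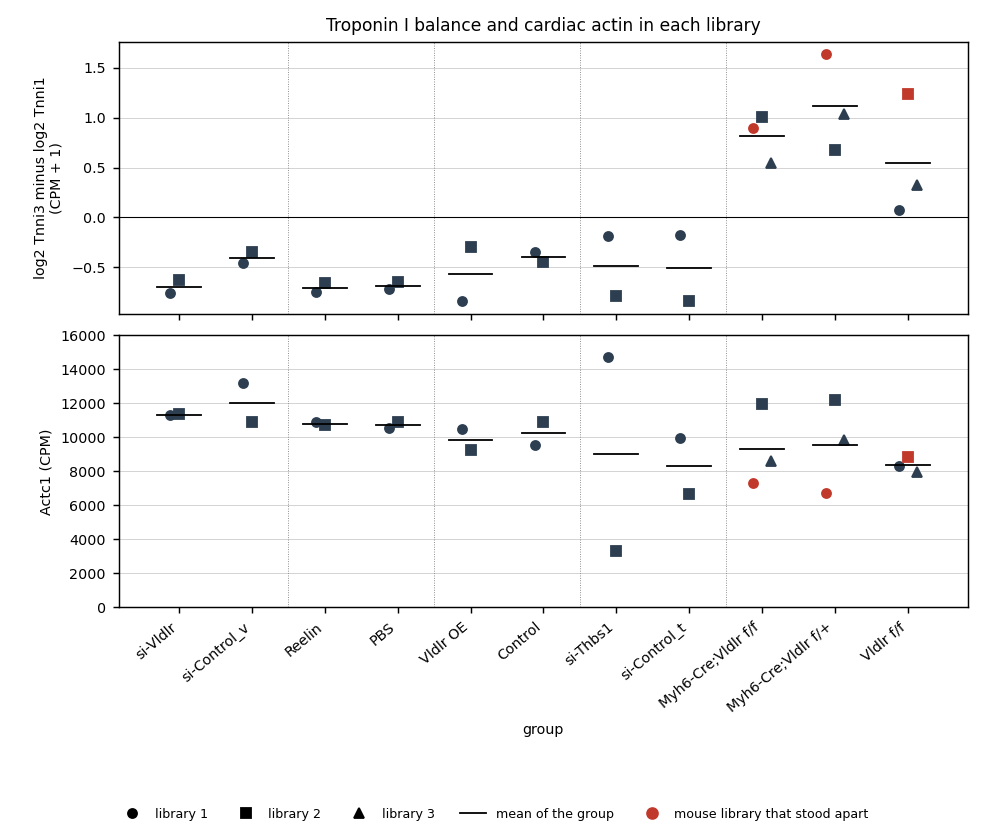
Log2 ratio of Tnni3 to Tnni1 (upper panel, from CPM + 1) and Actc1 in CPM (lower panel) in each of the 25 libraries, by group, with a line at the mean of each group. The ratio is below 0 in all rat libraries and above 0 in all mouse libraries, and Actc1 spans 3331 to 14735 CPM within si-Thbs1 alone.

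A list of 54 other sarcomere genes, among them the myosins, also had 0 called in any of the 7 comparisons or in the difference between knockdown and overexpression. Over all genes 0% to 0.0447% were called. With si-Vldlr, of 47 tested, 12 had an unadjusted p under 0.05, 9 lower and 3 higher, against 11.8% of all genes. Obsl1, a gene of the M-band, was 203 and 216 CPM in si-Vldlr and 267 and 297 CPM in si-Control_v (-0.42 ± 0.11). Pdlim1 was 111 and 107 CPM in si-Vldlr and 89.4 and 74.8 CPM in si-Control_v (0.41 ± 0.11). With Reelin no gene of 47 reached an unadjusted p under 0.05, against 1.36% of all genes. Lmod1 (0.30 ± 0.18) and Cmya5 (0.21 ± 0.16) came nearest. With Vldlr OE 2 of 47 did, against 4.52% of all genes, both lower, Myo18b (-0.40 ± 0.14) and Cmya5 (-0.41 ± 0.16). With si-Thbs1 none of 45 did, against 5.52% of all genes, Pdlim1 (0.54 ± 0.22) and the non-muscle alpha-actinin Actn1 (0.33 ± 0.15) being nearest. In the difference between knockdown and overexpression Tpm4 (0.47 ± 0.16) and Fhl2 (-0.35 ± 0.13) had the smallest p-values.

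In mouse 52 of the 54 were tested. With both copies floxed and Cre present, 3 had an unadjusted p under 0.05, all lower than in Vldlr f/f, against 3.04% of all genes. Obsl1 was 170, 117 and 152 CPM in Myh6-Cre;Vldlr f/f and 276, 174 and 214 CPM in Vldlr f/f (-0.58 ± 0.24). In the heterozygous comparison 6 had an unadjusted p under 0.05, 4 higher and 2 lower than in Vldlr f/f, against 2.43% of all genes. The light chain genes Myl4 and Myl7, known as atrial forms, had the smallest p-values. Myl4 was 873, 939 and 620 CPM in Myh6-Cre;Vldlr f/+ and 616, 307 and 177 CPM in Vldlr f/f, and Myl7 was 2091, 946 and 748 CPM in Myh6-Cre;Vldlr f/+ and 629, 453 and 183 CPM in Vldlr f/f (1.61 ± 0.51). Myl7 was 734, 359 and 364 CPM in Myh6-Cre;Vldlr f/f, lower than in Myh6-Cre;Vldlr f/+ by value (-1.31 ± 0.51), as was the small heat shock protein gene Hspb6, at 48.5, 58.6 and 81.0 CPM in Myh6-Cre;Vldlr f/f and 192, 166 and 117 CPM in Myh6-Cre;Vldlr f/+ (-1.32 ± 0.36). The limma adjusted p was at least 0.997 for each of these mouse genes.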

How the data were processed

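Total RNA libraries were sequenced from rat and mouse heart muscle cells. The authors deposited CPM tables (every column sums to 1000000), and name the tools edgeR 3.20.9, HISAT2 2.1.0 and StringTie 1.3.4 and the builds rn6 and mm10, per the submitters' processing notes, which give no roles. Of 25 columns, 23 matched a label by name. The 2 columns named Blank were given to Control by elimination. Per table, rows with repeated date-like names (4) were left out. Values within 0.05 steps of a whole multiple made up 97.03% to 97.61% of low values in rat and 100.0% in mouse.

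CPM is not a count, so the test was limma 3.58.1 (R 4.3.3, intensity trend) on log2(CPM + 1), which understates changes of low genes. Each group had its own mean, and every group in a table entered the same fit. P-values were two-sided with Benjamini-Hochberg adjustment over all genes tested and calls at 0.05. Errors after a fold change are standard errors. edgeR 4.0.16 was run as an alternative on the whole mouse steps. The labels state no pairing of libraries. Deviations of same-numbered libraries of Myh6-Cre;Vldlr f/f and Myh6-Cre;Vldlr f/+ correlated at 0.46, 0.44 and 0.33 over genes. Library 1 of both was among those that stood apart. For Myh6-Cre;Vldlr f/f and Vldlr f/f the correlations were -0.37, -0.29 and 0.06. A block on the number, fitted to every mouse genotype together, changed no call between the Cre genotypes, which does not test whether their libraries are paired.

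Named members are the 4 with the smallest p per comparison and those that result turned on. Other sarcomere genes named are the 2 with the smallest p, except that 1 result is not reported here. The members and lists were chosen with earlier results of these data known.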

Additional observations from a re-analysis of the deposited data

How the results depend on the processing

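The count of called members stayed at 0 under each alternative that was run in the Reelin, Vldlr OE and mouse comparisons and in the difference test: a pseudocount of 0.1, no filter on low values, median-of-ratios scaling, a total without mitochondrially encoded genes, a fit to the compared groups alone, a replicate block, leaving out each library and, in mouse, edgeR's quasi-likelihood test and leaving out the 3 libraries that stood apart (added after seeing the data). With si-Vldlr it ranged from 0 to 1 over left-out libraries, and with si-Thbs1 from 0 to 2. The replicate block for si-Thbs1 called 1 member, Xirp2 (1.16, limma adjusted p = 0.0259), beside 43 genes in all. Here, as for si-Vldlr and Reelin, the libraries share only a number (correlation of deviations 0.41, 0.16 and -0.06), and the block called no other member. It could not be fitted for Vldlr OE, whose Control columns carry no replicate number of the labels, and neither it nor the fit to the compared groups alone was run for the difference test. That fit was also not run for si-Thbs1, whose table holds only those groups. Other sarcomere genes called ranged from 0 to 2 over left-out libraries, with Actn1 and Myh6 called without si-Control_v replicate 1 and Myo18b among those called without Vldlr OE replicate 2.

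The members' median log2 fold change with si-Vldlr was -0.11 under median-of-ratios scaling and -0.16 without mitochondrially encoded genes, and -0.18 to -0.14 over left-out libraries. With Reelin it was 0.01, 0.02 and 0.03 to 0.06 under the same settings. With Vldlr OE it was -0.08 under median-of-ratios scaling and -0.15 to -0.09 over left-out libraries, and with si-Thbs1 -0.04 to 0.29. For Myh6-Cre;Vldlr f/f set against the Vldlr f/f libraries it was 0.06 under median-of-ratios scaling, 0.07 with edgeR, 0.08 without the 3 libraries and -0.12 to 0.02 over left-out libraries, so its sign depends on the setting. Over left-out libraries it was -0.11 to 0.06 for the heterozygous comparison and -0.10 to 0.08 between the Cre genotypes, and the sign turned there too. The causes were not tested. With edgeR, members with an unadjusted p under 0.05 numbered 1 for each Cre genotype set against Vldlr f/f and 0 for the 2 Cre genotypes set against each other.

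Calls over all genes also changed with the setting. With si-Vldlr they were 4, and 3 to 8 in the other settings except 167 without si-Control_v replicate 1. With Reelin they were 2, and 2 to 13. With Vldlr OE they were 1, and 1 to 8 except for 257 when Vldlr OE replicate 2 was left out and 80 when Control column 1 was. With si-Thbs1 they were 6, against 0 with no filter and 14 to 185 over left-out libraries. In mouse they were 0, and 0 to 3. The files give CPM and not reads, so the depth behind low members such as Trim54 and Xirp2 in mouse is not known.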
